A study of Mus musculus with 6 samples.

Results

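Loss of FMRP, an RNA-binding protein, causes fragile X syndrome. FMRP works beside a small set of related and partner proteins, and the transcripts of 8 genes of this set were compared in WT and Fmr1 KO hippocampal neurons. They are Fmr1, its paralogs Fxr1 and Fxr2, and the genes Cyfip1, Cyfip2, Nufip1, Nufip2 and Caprin1 of direct protein partners. The set was defined by gene symbol, with no measured value in the rule, although earlier results of these data were known when it was drawn up, and each symbol had 1 locus among the 47086 loci of the deposited table. Total RNA came from primary hippocampal cultures of mice on a C57BL/6 background at 14 days in vitro, with 3 libraries of WT and 3 of Fmr1-KO neurons. Fmr1 is X-linked, and the labels name no other allele or treatment in either group. The labels and methods do not give which Fmr1 null allele the mice carried. The methods describe the mice of the study as males and do not separately give the sex or litter of the pups behind each library. The labels do not say whether the 3 libraries of a genotype are separate cultures, so the p-values measure the spread between these libraries, which may in part be technical.

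FMRP binds mRNAs on polyribosomes and holds back their translation, and in neurons it travels in granules that carry mRNA into dendrites. FXR1P and FXR2P share its RNA-binding architecture and form complexes with it. CYFIP1 links FMRP to the cap-binding factor eIF4E, and both CYFIP1 and CYFIP2 belong to the WAVE complex, which drives the branching of actin filaments. NUFIP1 is a nuclear factor of snoRNP assembly, while NUFIP2 and CAPRIN1 are cytoplasmic RNA-binding proteins of neuronal RNA granules and stress granules.

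None of the 8 transcripts passed the test of a difference between genotypes at an adjusted p of 0.05, as 0.265% of all tested loci did. Fmr1 itself had a slightly higher mean in Fmr1 KO than in WT, within the spread between libraries, and the means of Fxr1 and Fxr2 were slightly lower there, also within that spread. Caprin1 was the single gene of the set whose libraries did not overlap between genotypes, with a difference of 0.06 on the log2 scale, while 21.1% of all tested loci had such separate libraries. The levels of the 8 genes spanned more than an order of magnitude and kept nearly the same order in every library.

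Because the paralogs are related in sequence, reads of one could in principle be assigned to another. In the GENCODE M21 annotation of GRCm38, none of the stretches of 50 bases in the transcripts of any of the 8 genes occurred in a transcript of another of the 8. The coding sequences of Fmr1 and Fxr1 were 72.4% identical over their aligned bases, those of Fmr1 and Fxr2 70.4%, those of Fxr1 and Fxr2 71.3% and those of Cyfip1 and Cyfip2 78.1%. The longest exact run shared by 2 coding sequences was 14 bases for Fmr1 with either paralog, 20 for Fxr1 with Fxr2 and 24 for Cyfip1 with Cyfip2. For Nufip1 and Nufip2, which share a name and not a family, it was 11. Stretches of 60 coding bases of the 3 paralogs were compared where they began at a codon of Fmr1 and aligned without gaps. The most alike of these is given, read 5′ to 3′ on the coding strand. Capitals mark each of the 13 positions where the 3 are not all the same.
Fmr1: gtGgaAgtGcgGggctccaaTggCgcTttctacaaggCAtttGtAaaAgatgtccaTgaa
Fxr1: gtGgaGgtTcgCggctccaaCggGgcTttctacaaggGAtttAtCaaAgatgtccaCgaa
Fxr2: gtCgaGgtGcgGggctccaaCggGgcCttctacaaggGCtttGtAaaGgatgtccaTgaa
These bases run from exon 1 into exon 2 of each gene, on the plus strand, at chrX:68678832-68688305, chr3:34020128-34039550 and chr11:69633363-69639413, with the intron between them not shown. Relative to Fmr1, Fxr1 differs at 9 and Fxr2 at 8 of the 60 bases.

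The same search in the other paralog pair, from codons of Cyfip1, gave a stretch with 4 differing positions, again in capitals.
Cyfip1: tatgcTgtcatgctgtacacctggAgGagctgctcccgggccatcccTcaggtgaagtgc
Cyfip2: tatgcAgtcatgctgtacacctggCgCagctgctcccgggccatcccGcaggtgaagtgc
It spans exons 4 and 5 of both genes, at chr7:55873473-55873665 on the plus strand for Cyfip1 and at chr11:46284250-46286117 on the minus strand for Cyfip2. Shared sequence with genes outside the set was found chiefly for Cyfip1. Of its 50-base stretches, 11.9% also occur in another gene's transcripts or in their reverse complements, most of them with the overlapping neighbour Nipa2. Matches on the same strand and on the opposite strand were not counted apart. The share was 2.23% for Fmr1, 1.79% for Fxr1, 0.363% for Nufip2 and 0 for Fxr2, Cyfip2, Nufip1 and Caprin1. For read length and for the treatment of reads with several matches, nothing is stated in the labels or methods.

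Levels are given as FPKM, a count of fragments scaled to transcript length and to library size, which the authors computed for each library and which allows levels of different genes to be set side by side per length. The 13195 loci whose mean reached 1 FPKM in at least 1 genotype entered a limma fit on the scale log2(FPKM + 0.1), and p-values were adjusted by the Benjamini-Hochberg procedure over all of them. All 8 genes passed this minimum in both genotypes. The number of reads behind an FPKM is unknown, and the number of libraries limits the precision. In the culture as a whole, neuronal, astrocyte and oligodendrocyte-lineage markers were abundant, and microglial and endothelial markers were low or listed at 0. The 7 oligodendrocyte-lineage markers summed to 317 to 370 FPKM in WT and to 366 to 406 in Fmr1 KO. Of the 6 tested, 2 passed an unadjusted limma p of 0.05, which 14.8% of all tested loci did. These were Pdgfra and Olig2, both higher in Fmr1 KO, and neither passed an adjusted p of 0.05. Over all 6 libraries, Snap25 was between 224 and 277 FPKM and Gfap between 542 and 675. Of 6 neuronal markers, Map2 alone passed that unadjusted threshold, at a mean of 302 FPKM in WT and 362 in Fmr1 KO (limma adjusted p = 0.0593). Of 6 astrocyte markers, Gja1 alone did, with a log2 difference of -0.19 (limma adjusted p = 0.301). Camk2a alone did among 5 excitatory markers, at 0.16, and Npy alone among 5 inhibitory markers, at -0.19 (limma adjusted p = 0.286 and 0.131). The 8 microglial markers summed to 4.16 to 6.29 in WT and to 1.06 to 2.41 in Fmr1 KO, with Tmem119 and Aif1 listed at 0. Fewer cells of a type and less RNA per cell cannot be told apart in such bulk samples.

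**Figure D1:**
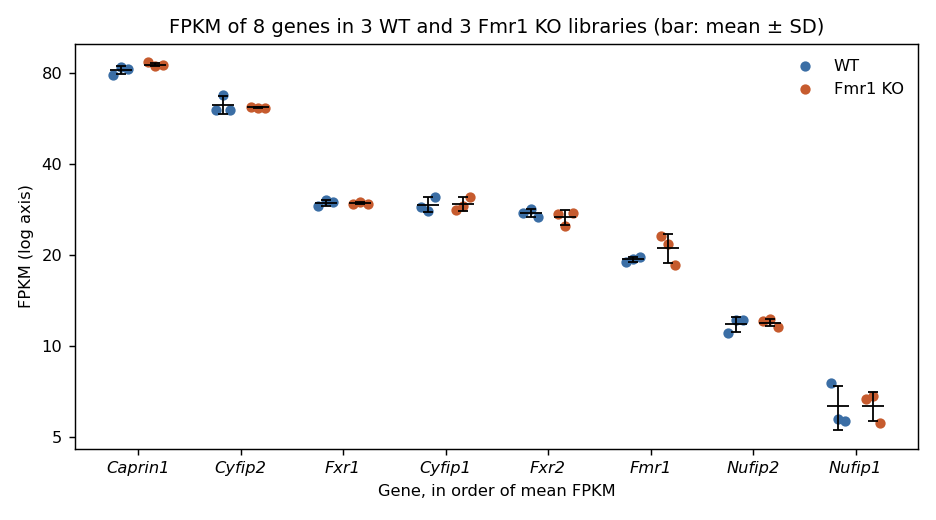
FPKM (log axis) of Fmr1, its paralogs and partners in each of the 3 WT (blue) and 3 Fmr1 KO (orange) libraries, with the mean and SD of each genotype as bars. Genes stand in order of their mean, from Caprin1 at 83.8 to Nufip1 at 6.32, and points of the genotypes overlap for every gene except Caprin1.

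Fmr1 (XLOC_042282, GRCm38 chromosome X, 68678541 to 68717963) carried 19.0, 19.5 and 19.7 FPKM in WT replicates 1 to 3. In Fmr1 KO replicates 1 to 3 it carried 23.1, 21.8 and 18.5. Replicates 1 and 2 of the Fmr1 KO group lay above all WT libraries and replicate 3 lay below all of them, so that the SD was 0.357 in WT, against 2.36 in Fmr1 KO (n = 3 each). The log2 difference was 0.12 (standard error 0.08, limma adjusted p = 0.536), and its 95% interval ran from -4.34% to 23.1%. A loss of most of the transcript lies outside that interval. Without Fmr1 KO replicate 3 the log2 difference was 0.21, with an adjusted p of 0.328 in limma, and the unadjusted p was then below 0.05. One FPKM stands for the whole locus, so an interrupted transcript counts like an intact one, and the value is no check of the genotype labels.

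Fmr1 lies on the X chromosome, and 3 of 4 Y-linked transcripts examined differed between the groups. Xist, which silences an X chromosome in female cells, was at 59.9, 77.9 and 74.6 FPKM in WT, against 53.0, 61.3 and 60.8 in Fmr1 KO (limma adjusted p = 0.267). The Y-linked genes Eif2s3y, Ddx3y and Kdm5d were higher in Fmr1 KO by 1.13, 0.66 and 0.76 on the log2 scale (limma adjusted p = 0.000183, 0.00374 and 0.0368). Uty, the fourth, had a log2 difference of 0.71 and did not pass (limma adjusted p = 0.0630). Xist and Y-linked transcripts were both present in all 6 libraries, although the methods name male mice. Each of the 4 Y-linked genes was higher in every Fmr1 KO library than in any WT library. This difference runs together with genotype in every comparison here, of autosomal, X-linked and marker genes alike. Its part in their values was not tested.

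The paralogs of Fmr1 were steadier. Fxr1 (chromosome 3, 34020058 to 34081354) was at 29.1, 30.5 and 30.0 FPKM in WT. It was at 29.5, 29.9 and 29.5 FPKM in Fmr1 KO. All 6 values lay within a range of 29.1 to 30.5, the narrowest of the set in relation to its mean, with a coefficient of variation of 1.61%. The log2 difference was -0.01 (standard error 0.05, limma adjusted p = 0.953), with a 95% interval from -7.56% to 6.86%. The region of the Fxr1 locus also holds the expressed gene Dnajc19.

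Fxr2 (chromosome 11, 69632971 to 69653297) had 27.6, 28.4 and 26.8 FPKM in WT, against 27.4, 24.9 and 27.7 in Fmr1 KO. Replicate 2 held the highest value of the WT group and the lowest of the Fmr1 KO group. Its log2 difference was -0.05 (standard error 0.06, limma adjusted p = 0.733), with a 95% interval from -11.8% to 5.67%. The upper ends of the intervals of Fxr1 and Fxr2 lay below that of Fmr1.

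**Figure D2:**
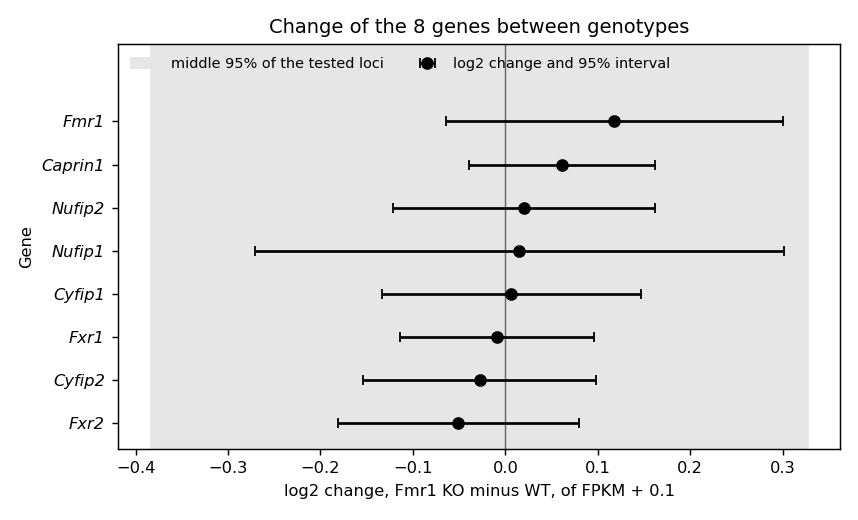
Log2 difference (Fmr1 KO minus WT, of FPKM + 0.1) of the 8 genes with its 95% interval from limma; the grey band holds the middle 95% of all 13195 tested loci, from -0.38 to 0.33. Each interval includes 0, and each lies inside the band.

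Expressed as a share of the summed FPKM of the 3 paralogs, which does not depend on how a library was scaled, Fmr1 made up 25.1%, 24.8% and 25.8% in WT. The share was 28.9%, 28.4% and 24.5% in Fmr1 KO. The means were 25.2% ± 0.476 and 27.2% ± 2.42 (SD, n = 3), and p was 0.4 in an exact two-sided permutation test, which with 3 against 3 cannot go below 0.1. Fxr1 held the largest share in both genotypes, 38.9% ± 0.369 and 38.3% ± 1.23, and Fxr2 held 35.9% ± 0.744 and 34.4% ± 2.02. The sum of the 3 was 76.8 ± 1.35 FPKM in WT, against 77.4 ± 2.28 in Fmr1 KO (exact permutation p = 0.6), so the combined transcript level of the family differed by less than its spread.

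Ratios within a library test the change of one paralog against that of another. The ratio of Fxr1 to Fmr1 was 1.53, 1.57 and 1.52 in WT, against 1.28, 1.38 and 1.59 in Fmr1 KO. The ratio of Fxr2 to Fmr1 was 1.45, 1.46 and 1.36 against 1.19, 1.14 and 1.49. In both, replicates 1 and 2 of the Fmr1 KO group lay below WT and replicate 3 above it, as the values of Fmr1 did in reverse. The ratio of Fxr2 to Fxr1 was 0.924 ± 0.0270 in WT, against 0.899 ± 0.0577 in Fmr1 KO (SD, n = 3). The exact permutation p was 0.4 for each of the first 2 ratios and 0.6 for the third. The p-values were 1 for all 5 ratios computed after Benjamini-Hochberg adjustment over them, those of the Cyfip and Nufip pairs included.

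**Figure D3:**
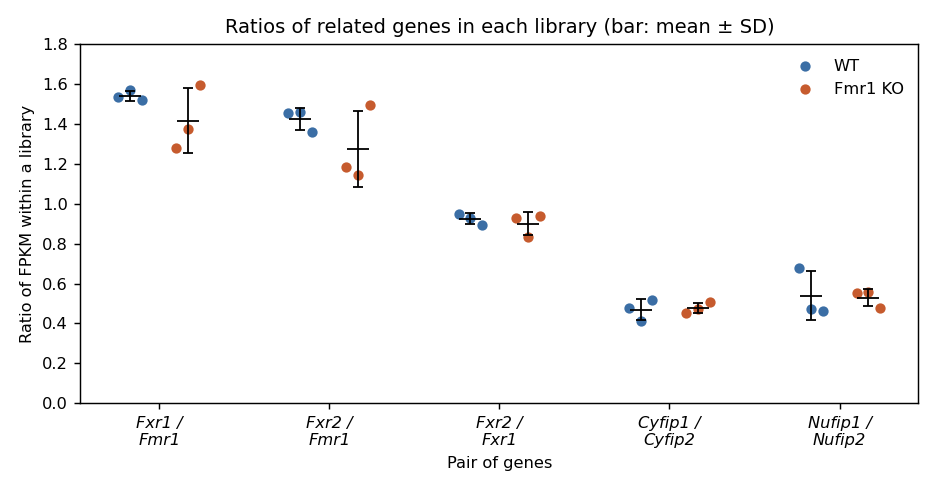
Ratios of FPKM within a library for 5 pairs of genes, with WT libraries in blue, Fmr1 KO libraries in orange, and mean and SD as bars. The genotypes overlap in every ratio, and the SD on this linear axis is largest for the Fmr1 KO libraries in the 2 ratios with Fmr1 as denominator, while on the log2 scale the standard error of the difference is largest for Nufip1 to Nufip2, at 0.19.

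Cyfip1 and Cyfip2 encode alternative subunits of the WAVE complex. Cyfip1 (chromosome 7, 55841962 to 55962493) was at 28.9, 28.0 and 31.2 FPKM in WT, against 28.1, 29.2 and 31.2 in Fmr1 KO. Its log2 difference was 0.01 (standard error 0.06, limma adjusted p = 0.972; 95% interval from -8.84% to 10.7%). The region of the locus also holds the expressed genes Nipa2 and Gm17907. Cyfip2 (chromosome 11, 46148155 to 46312859) was at 60.6, 67.9 and 60.5 FPKM in WT, against 61.9, 61.6 and 61.6 in Fmr1 KO. All libraries but WT replicate 2 lay within 60.5 to 61.9 FPKM. Its log2 difference was -0.03 (standard error 0.06, limma adjusted p = 0.865; 95% interval from -10.1% to 7.04%), and it was 0.03 without WT replicate 2. Cyfip2 was the more abundant of the pair in all 6 libraries, and the ratio of Cyfip1 to Cyfip2 was 0.469 ± 0.0527 in WT, against 0.478 ± 0.0263 in Fmr1 KO (SD, n = 3; exact permutation p = 0.9).

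Nufip1 (chromosome 14, 76110891 to 76137379), the nuclear partner, was the least abundant gene of the set and the most variable. It had 7.52, 5.75 and 5.65 FPKM in WT, against 6.66, 6.82 and 5.54 in Fmr1 KO. Its 95% interval ran from -17.1% to 23.2% around a log2 difference of 0.02 (standard error 0.13, limma adjusted p = 0.970), the widest of the 8. Nufip2 (chromosome 11, 77685835 to 77717966) had 11.1, 12.2 and 12.2 FPKM in WT, against 12.1, 12.2 and 11.6 in Fmr1 KO, a log2 difference of 0.02 (standard error 0.06, limma adjusted p = 0.919) with an interval from -8.06% to 11.9%. The ratio of Nufip1 to Nufip2 was 0.539 ± 0.122 in WT, against 0.530 ± 0.0443 in Fmr1 KO (SD, n = 3; exact permutation p = 1).

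Caprin1 (chromosome 2, 103762945 to 103830155), whose product binds G3BP1 in RNA granules, was the most abundant. It carried 79.1, 84.0 and 83.0 FPKM in WT, against 87.0, 84.7 and 85.1 in Fmr1 KO. The lowest Fmr1 KO library stood just above the highest WT library, and the log2 difference was 0.06 (standard error 0.04, limma adjusted p = 0.566; 95% interval from -2.69% to 11.9%). The exact permutation p was 0.1, the smallest that 3 against 3 allow.

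Counted over the set, 0 of 8 genes passed an adjusted p of 0.05, which 0.265% of all tested loci did (0.0909% higher and 0.174% lower in Fmr1 KO), and 0 of 8 passed an unadjusted p of 0.05 in limma, which 14.8% did (6.99% higher and 7.77% lower). For 1 of 8 genes, WT and Fmr1 KO libraries were separate, against 21.1% of tested loci (10.8% higher and 10.3% lower). Log2 differences were above 0 for 5 genes and below 0 for 3, with a median of 0.01 beside 0.005 over all tested loci. The size of the change was below the median size of all tested loci, 0.08, for 7 of the 8, the exception being Fmr1. The residual SD between libraries was below the median of tested loci, 0.10 on the log2 scale, for 6 of the 8, the exceptions being Fmr1 at 0.12 and Nufip1 at 0.20.

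In order of mean FPKM over the 6 libraries, Caprin1 (83.8) was followed by Cyfip2 (62.3), Fxr1 (29.8), Cyfip1 (29.4), Fxr2 (27.1), Fmr1 (20.3), Nufip2 (11.9) and Nufip1 (6.32). Fmr1 was thus the least abundant transcript of its own family, and its mean exceeded that of 71.5% of the tested loci. Neighbours in this order were compared by an exact sign-flip test over the 6 libraries, with 0.0313 as the smallest possible p and adjustment over the 7 pairs. Fxr1 and Cyfip1 were not told apart (higher in 4 of 6 libraries, adjusted exact p = 0.625), nor were Cyfip1 and Fxr2 (5 of 6, adjusted exact p = 0.0729). The other 5 steps held in 6 of 6 libraries with ranges that did not overlap (adjusted exact p = 0.0438 each). The order was taken from these same 6 libraries, with both genotypes pooled, so the p-values describe its steadiness and are no independent test.

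Of the 28 pairs among the 8 genes, 11 had a Pearson's r above 0 over the 6 libraries, from -0.59 for Fxr1 with Nufip1 to 0.80 for Fxr1 with Nufip2. The loci with the pattern most like that of Fmr1, among 9372 others with a mean FPKM of at least 5, were Commd9 (r = 0.990), Slain2 (r = 0.984) and Haus2 (r = 0.982) over the same 6 libraries. In each of these 3, replicates 1 and 2 of the Fmr1 KO group were the highest libraries, as in Fmr1. Their r is the highest of a very large number, over points that share library and scaling, and is given as a description.

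Loci beside Fmr1 on the X chromosome were examined because flanking DNA is inherited together with a targeted allele. Of 65 loci within 2 Mb, 55 were listed at 0 in every library and 4 were tested. Ids, which encodes the lysosomal enzyme iduronate 2-sulfatase, was at 140, 141 and 147 FPKM in WT, against 166, 158 and 159 in Fmr1 KO. Tmem185a, a transmembrane protein gene, was at 10.7, 10.3 and 11.2 against 8.51, 9.15 and 9.44. The libraries of these 2 loci did not overlap and their log2 differences were of opposite sign, 0.18 (standard error 0.04, limma adjusted p = 0.140) and -0.25 (standard error 0.07, limma adjusted p = 0.161). Aff2, the nearest tested locus at 642 kb, had a log2 difference of 0.09 (limma adjusted p = 0.668), and 1110012L19Rik one of -0.09 (limma adjusted p = 0.647). With 1 library left out, these ranged from 0.046 to 0.18 for Aff2 and from -0.16 to -0.021 for 1110012L19Rik, with both ends set by WT libraries. None of the 4 passed the adjusted threshold. Ids and Tmem185a passed an unadjusted p of 0.05 in limma, as did 14.8% of all tested loci. Libraries were separate, as in these 2, for 21.1% of all tested loci. The groups also differed in Y-linked transcripts, as given above, and the part of that difference in these loci was not tested.

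**Figure D4:**
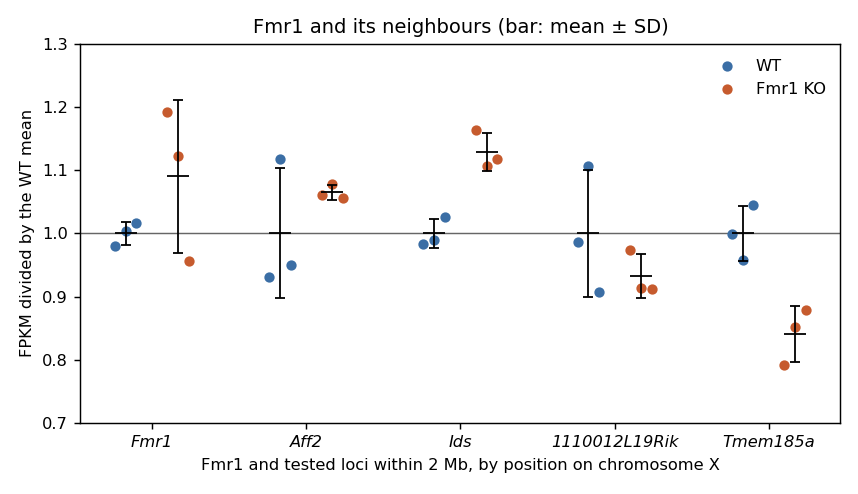
FPKM divided by the WT mean for Fmr1 and the 4 tested loci within 2 Mb of it, in order of position on chromosome X, with WT libraries in blue, Fmr1 KO libraries in orange, and mean and SD as bars. The genotypes are apart in Ids, which is higher in Fmr1 KO, and in Tmem185a, which is lower, and they overlap in Fmr1, Aff2 and 1110012L19Rik.

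The wider circle of genes around the 8 was described with 7 lists of 97 genes in all, of which 89 had a tested locus. None of the 89 passed an adjusted p of 0.05 in limma. At an unadjusted p of 0.05 there were 17 (19.1%, beside 14.8% of all tested loci), 12 higher and 5 lower in Fmr1 KO, and the median log2 difference of the 89 was 0.01. Dlg4, Csnk2b and Sumo2, which are broadly expressed or neuronal genes, were listed at or near 0 in all libraries, so a listed 0 in this table need not mean that the transcript is missing.

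Genes of the WAVE complex, which holds CYFIP1 or CYFIP2, were listed together with Rac1. Of the 8 tested, 1 (12.5%) passed the unadjusted threshold, beside 14.8% of all tested loci. This was Wasf1, the neuronal WAVE1 gene, at 80.2, 75.2 and 72.2 FPKM in WT, against 72.2, 67.9 and 68.3 in Fmr1 KO, a log2 difference of -0.13 (limma adjusted p = 0.323). Its partner Nckap1 was at 178 ± 4.42 and 166 ± 4.26 FPKM (SD, n = 3), with libraries that did not overlap and a log2 difference of -0.10 (limma adjusted p = 0.343). The largest difference in the other direction was that of Wasf2, 0.16 (limma adjusted p = 0.614), which was 0.060 without WT replicate 1 and 0.25 without Fmr1 KO replicate 2. Nckap1l, the counterpart of Nckap1 in blood cells and microglia, was below the minimum for testing at 0.269 FPKM in WT, against 0.0919 in Fmr1 KO, in the same direction as the microglial marker sum given above. Its relation to that sum was not tested.

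On the other side of the CYFIP1 link, 13 genes of initiation factors at the cap, eIF4E-binding proteins and Mnk kinases were listed. None passed an unadjusted p of 0.05, which 14.8% of all tested loci did, and the median log2 difference was 0.02. Eif4e, which encodes the cap-binding protein that CYFIP1 holds, was at 36.4 ± 1.41 and 35.5 ± 2.29 FPKM. The ends of the list were Eif4ebp2, the eIF4E-binding protein most expressed in brain, with a log2 difference of 0.09 (limma adjusted p = 0.526), and Eif4ebp3 with -0.19 (limma adjusted p = 0.542).

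Among stress granule genes around Caprin1, 5 of 12 (41.7%) passed the unadjusted threshold, 4 higher and 1 lower. Of all tested loci, 14.8% did, 6.99% higher and 7.77% lower, and the list was not tested as a set. Tia1, an RNA-binding protein that nucleates stress granules, was at 39.9, 39.4 and 39.2 FPKM in WT, against 46.6, 46.8 and 44.2 in Fmr1 KO, a log2 difference of 0.22 (standard error 0.05, limma adjusted p = 0.0979). Its relative Tial1 had 43.4 ± 0.691 and 48.9 ± 1.13 FPKM (SD, n = 3), and the poly(A)-binding protein gene Pabpc1 had 149 ± 1.18 and 165 ± 1.67. Atxn2l was the fourth, with a log2 difference of 0.16, and Ubap2 had one of -0.16 (limma adjusted p = 0.298). The direct CAPRIN1 partners G3bp1 and G3bp2 had log2 differences of 0.08 and -0.01 (limma adjusted p = 0.552 and 0.957), and Usp10 one of -0.02. The median of the list was 0.04.

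Of the other listed protein partners of FMRP, not all of them RNA-binding proteins, 4 of 17 (23.5%) passed the unadjusted threshold. All 4 were higher in Fmr1 KO, and the median of the list was 0.05. Of all tested loci, 14.8% passed it, 6.99% higher and 7.77% lower, and this list was not tested as a set either. Ewsr1, of the FET family of RNA-binding proteins, had 49.6, 51.6 and 52.4 FPKM in WT, against 57.2, 60.5 and 60.4 in Fmr1 KO (log2 difference 0.21, standard error 0.05, limma adjusted p = 0.106). The others were Ybx1, Hnrnpa2b1 and Purb, with log2 differences of 0.18, 0.14 and 0.12. Ybx1, Hnrnpa2b1 and Pabpc1 have processed pseudogenes, and how the counting treated shared reads is not given, so their values are uncertain to that extent. Tdrd3 and Top3b, whose products bind FMRP and the FXR proteins as a complex, had log2 differences of 0.16 and 0.11 (limma adjusted p = 0.363 and 0.446). The lowest value of the list was -0.07 in Ranbp9 (limma adjusted p = 0.588).

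**Figure D5:**
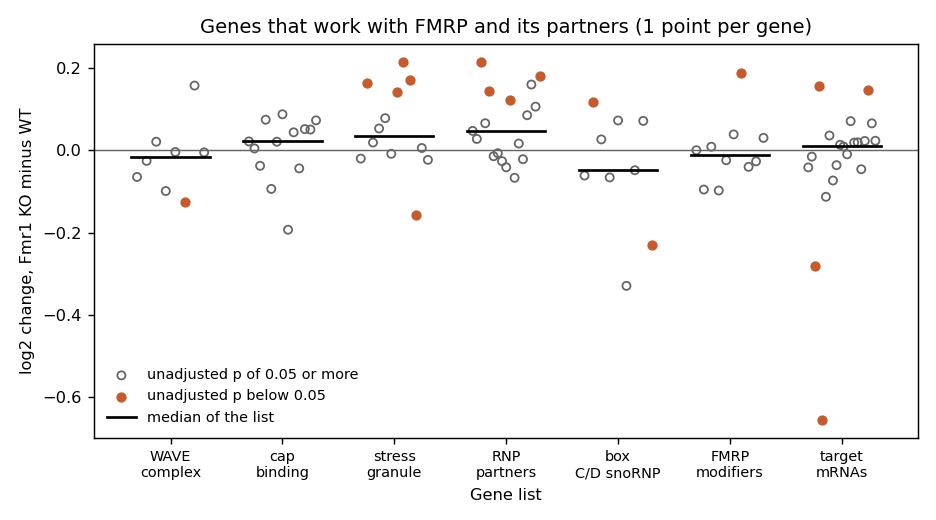
Log2 difference (Fmr1 KO minus WT) of the tested genes of 7 lists around FMRP and its partners, 1 point per gene, filled where the unadjusted limma p is below 0.05; lines give the median of each list. Medians lie between -0.05 and 0.05, and the point farthest from 0 is Dgkk at -0.65.

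For box C/D snoRNP assembly, the nuclear task of NUFIP1, 2 of 9 genes (22.2%) passed the unadjusted threshold in opposite directions, beside 14.8% of all tested loci. Znhit6 had a log2 difference of -0.23 and Nop56, a core snoRNP protein, one of 0.12 (limma adjusted p = 0.267 and 0.329). Ruvbl1 was lowest in the list at -0.33, with a standard error of 0.25 at an FPKM near 1 (limma adjusted p = 0.585), and the value was -0.12 without Fmr1 KO replicate 3 and -0.59 without Fmr1 KO replicate 1. Of 10 genes whose products modify FMRP, 1 passed (10%, beside the same 14.8%). Rps6kb1, which encodes the S6 kinase S6K1, was at 12.7, 13.1 and 13.9 FPKM in WT, against 14.8, 15.5 and 14.9 in Fmr1 KO, a log2 difference of 0.19 (standard error 0.06, limma adjusted p = 0.208). Ppp2ca, the catalytic subunit of the phosphatase PP2A, was lowest in that list at -0.10 (limma adjusted p = 0.458).

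Of 20 tested genes whose mRNAs are classically described as FMRP targets, 4 (20%) passed the unadjusted threshold, 2 in each direction. Of all tested loci, 14.8% passed it. The median log2 difference of the list was 0.01. Dgkk, the X-linked gene of diacylglycerol kinase kappa, was between 2.14 and 2.39 FPKM in the WT libraries and between 1.25 and 1.51 in those of Fmr1 KO. The log2 difference of -0.65 (standard error 0.13) was the largest of all 89 genes and had an adjusted p of 0.0884 in limma. The groups differed in Y-linked transcripts too, and the part of that difference in the value of Dgkk was not tested. Arc, an activity-regulated gene, was at 4.60 ± 0.215 and 3.77 ± 0.302 FPKM (SD, n = 3), a log2 difference of -0.28. Camk2a and Shank1, a kinase and a scaffold of the postsynaptic density, had log2 differences of 0.16 and 0.15. The values of steady-state RNA given here say nothing of the translation of these mRNAs.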

How the data were processed

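RNA-seq of total RNA from primary hippocampal cultures was used (6 libraries, 3 WT and 3 Fmr1 KO). By the methods and the labels, the authors clipped and trimmed the reads, used TopHat2 for mapping to GRCm38, then Cufflinks and Cuffdiff. In the sources used here, their versions, the annotation and the library scaling are not stated. The deposited values used are the FPKM of each library. The table also holds group means, fold changes and p-values of the authors' comparison, which were not used. Starts were converted to count from 1.

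Rows with the same locus identifier (identical values) were kept once, and log2(FPKM + 0.1) was fitted with limma 3.58.1 in R 4.3.3 (genotype only, mean-variance trend, minimum FPKM of 1 in either genotype). In data simulated for this comparison with 200 changed loci of 13044 or 13069, 65% of changes of 0.5 and 94% of changes of 1 on the log2 scale were recovered. Ratios, shares and orders were compared by exact tests. The files hold no counts and the depth is unknown. Sequences and gene models came from GENCODE M21, also GRCm38, aligned with Biopython 1.88.

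The rule for the 8 genes uses symbols and no measured value, but the 8 genes and the 7 lists were chosen with earlier results of these data known. Besides the 8 genes, the text names, of each list, the largest rise and fall, the loci within 2 Mb of Fmr1, and the 3 loci most like it; other list genes, the marker genes and the sex-linked genes were named after their values were seen. Alternatives were pseudocounts of 1 and 0.01, no minimum and a minimum of 5, centred libraries, no trend, the replicate number as a block, each library left out, and the sum of all loci with a symbol, which equals the value given as each symbol has 1 locus.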

Additional observations from a re-analysis of the deposited data

How the results depend on the processing

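No gene of the set and none of the 89 listed genes passed an adjusted p of 0.05 in any of the 13 refits with limma, and no tested locus within 2 Mb of Fmr1 did. Over the refits the log2 change of Fmr1 was 0.05 to 0.21, that of Fxr2 -0.08 to -0.0030 and that of Caprin1 0.04 to 0.08. Changes near 0 turned sign when a library was left out, with ranges of -0.027 to 0.0066 for Fxr1, -0.034 to 0.052 for Cyfip1, -0.056 to 0.028 for Cyfip2, -0.057 to 0.15 for Nufip1 and -0.025 to 0.044 for Nufip2. The same held for the log2 ratios of Fxr2 to Fxr1 (difference of -0.073 to 0.012), Cyfip1 to Cyfip2 (-0.055 to 0.11) and Nufip1 to Nufip2 (-0.10 to 0.17). List genes whose log2 change moved by over 1.5 times with a library left out included Eif4ebp2 (0.039 to 0.12), Eif4ebp3 (-0.28 to -0.11), Ranbp9 (-0.092 to -0.036), Camk2a (0.098 to 0.20) and Ppp2ca (-0.14 to -0.065), without a change of sign. Genes of the set at an unadjusted p below 0.05 were 0 to 1 with a library left out, the 1 being Fmr1 without Fmr1 KO replicate 3. Listed genes at an unadjusted p below 0.05, 17 in the text, were 20 with the replicate block, 11 without the trend and 8 to 16 with a library left out, lowest without Fmr1 KO replicate 2 (8) and WT replicate 1 (11).

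Loci called at an adjusted p of 0.05, 35 in all, were 15 without a minimum, 54 with a minimum of 5, 21 without the trend and 14 to 20 with a library left out, where fewer samples enter. The cause of the other shifts was not tested. The replicate number as a block gave 65 loci and changed no adjusted call among the 8 genes, the listed genes or the loci near Fmr1. The correlations of same-numbered libraries were 0.24, 0.06 and 0.08, and those of differently numbered libraries -0.15 to 0.08. Replicate 1 of each genotype deviated together and the other numbers did not stand apart, so the numbers were not taken as pairs. With an unknown depth, the spread of 3 libraries sets the precision.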
